A study of Mus musculus with 15 samples.

Results

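Livers of wild-type mice given antibiotics were compared, across all measured genes, with livers of Tlr4 mutant mice, after the same 2 liver toxins. The 8 arrays compared were antibiotic arrays 12, 13, 14 and 15 and mutant arrays 8, 9, 10 and 11, out of 15 arrays in the series, and every value list below keeps that array order. A gene was kept when a probe set (the array's group of probes for one transcript) with a single gene symbol reached a log2 level of 4 on 3 or more of the 15 arrays, and the kept probe set with the highest mean stood for the gene. This left 9482 of the 18193 symbols on the array.

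The antibiotic group was C3H/HeOuJ wild-type males whose drinking water held vancomycin (500 mg/l) and, at 1 g/l apiece, metronidazole, ampicillin and neomycin. This course began in week 10 and lasted 2 weeks; the labels do not say whether antibiotics were given after week 12. The mutant group was C3H/HeJ mice, a related strain whose Tlr4 carries the point mutation P712H, with no antibiotics in its labels. Mutant array 8 carries no sex label and the other 14 arrays are labelled male. The Y-chromosome gene Kdm5d read 8.69 (log2) on array 8, against 8.90, 8.28 and 8.43 on mutant arrays 9, 10 and 11. By this gene array 8 was male like them. Both groups received DEN (diethylnitrosamine) at 100 mg/kg at 12 weeks of age and 0.50 ml/kg CCl4 (carbon tetrachloride) in weeks 13 and 15; the livers were taken 48 h after the second of these doses, at 15 weeks. A free-text label that instead speaks of liver resection and another age contradicts these fields and was not used. The 4 treated wild-type arrays (C3H/HeOuJ, DEN and CCl4, no antibiotics) and the 3 untreated wild-type arrays (C3H/HeOuJ, no toxin) are not part of the difference tested. Their levels are given below for comparison. They did enter the filter, the choice of probe set and the shared estimate of spread behind each standard error and p-value. Strain, Tlr4 allele and antibiotic course differ together between the 2 groups compared, so their shares in any difference cannot be told apart. The labels name no batch, scan date or animal, and p-values therefore measure the spread between samples within the groups of the series.

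TLR4 is the receptor for lipopolysaccharide, the outer-membrane glycolipid of Gram-negative bacteria. Portal blood carries such products from the gut to the liver, where Kupffer cells (the resident macrophages), sinusoidal endothelium and stellate cells express the receptor and can release cytokines and growth factors. DEN is activated by hepatocyte cytochromes P450 and alkylates DNA, and CCl4, activated chiefly by CYP2E1, kills hepatocytes around the central vein, which is followed by repair, matrix deposition and hepatocyte division. Oral antibiotics lower the bacterial load of the gut, and the mutant receptor of C3H/HeJ does not transmit the lipopolysaccharide signal. The comparison sets side by side an oral antibiotic course and a mutation of the receptor. The arrays hold no measure of bacterial load or lipopolysaccharide, so how far either changed this signal was not tested.

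Levels are log2 GCRMA values (a background-corrected and normalised array intensity). Arrays of a group correlated with each other at r of 0.977 to 0.990 across the kept genes in these 2 groups, and antibiotic with mutant arrays at 0.958 to 0.982. The tissue label was borne out by hepatocyte markers: albumin (Alb) lay between 14.64 and 14.78 on the antibiotic arrays and between 14.62 and 14.78 on the mutant arrays, and Cps1, the entry enzyme of the urea cycle, between 13.60 and 13.90 on the antibiotic arrays and between 13.50 and 13.90 on the mutant arrays. Tlr4 itself lay between 1.84 and 3.67 on all 15 arrays, below the filter, and a 3-prime array cannot read a point mutation, so the genotype label could not be checked. Few markers of other tissues passed the filter: the adipose and mesothelium list had 1 kept gene of 7 on the array, with a linear signal of 17 to 22 on the antibiotic arrays and 17 to 25 on the mutant arrays. The pancreas list had 1 of 8, with 212 to 469 on the antibiotic arrays and 337 to 522 on the mutant arrays, and neither gene was called.

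Of the 9482 kept genes, 1165 (12.3%) differed between the groups at an adjusted p under 0.05, in limma's moderated test with Benjamini-Hochberg adjustment over all kept genes. Of these, 652 (6.88% of kept genes) were higher in the antibiotic group and 513 (5.41%) lower, and 269 (2.84%) were higher and 90 (0.949%) lower by 2-fold or more. For 1477 genes (15.6%) the 4 antibiotic arrays did not overlap the 4 mutant arrays. The median difference over all kept genes was -0.02. The number of calls fell to 723 without mutant array 8, to 757 without antibiotic array 14 and to 673 (439 higher, 234 lower) when the 8 arrays were fitted alone.

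**Figure D1:**
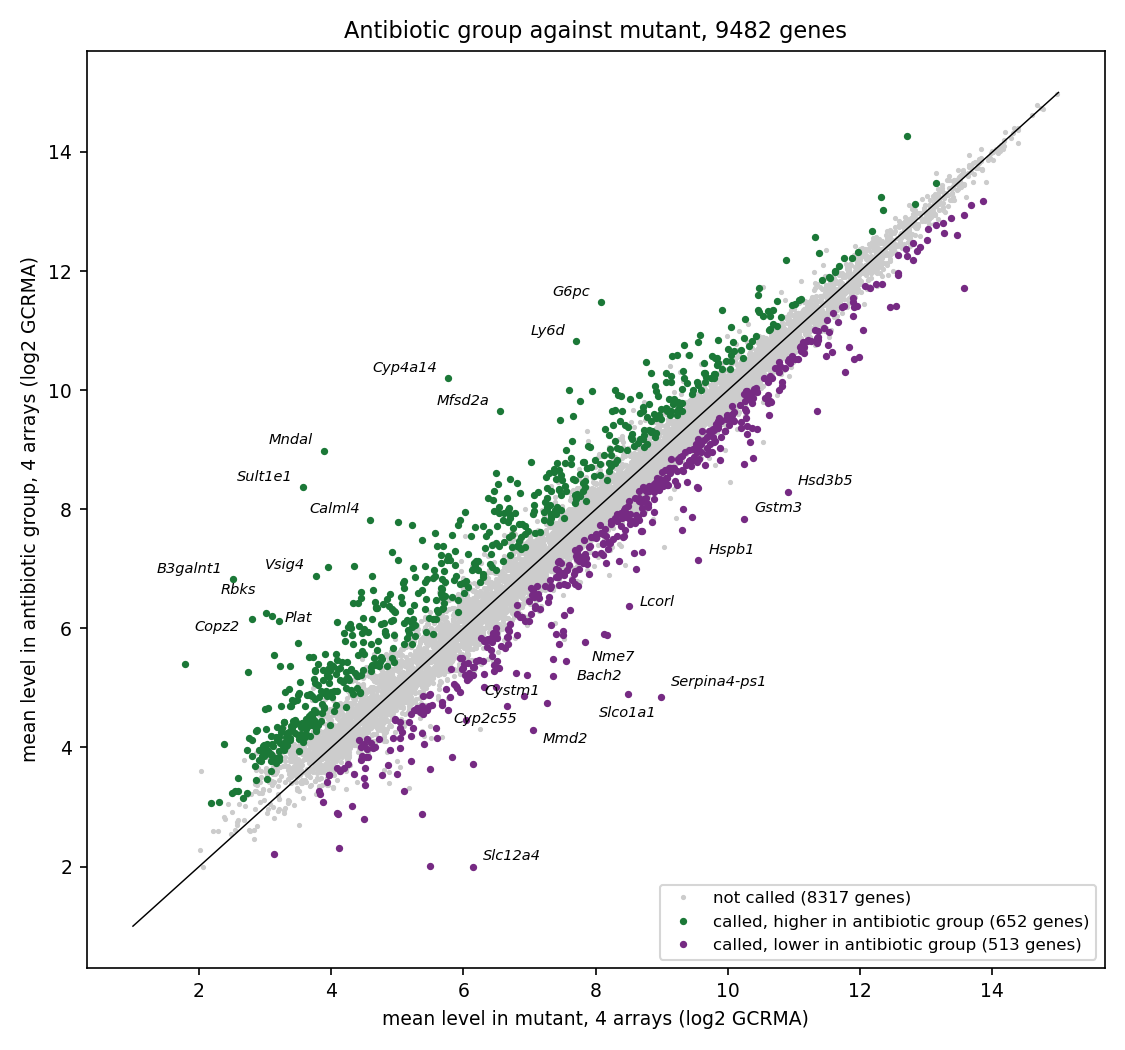
Mean log2 GCRMA level of each of 9482 genes on the 4 antibiotic arrays (vertical axis) against the 4 mutant arrays (horizontal axis); the line marks equal levels, green points are the 652 genes called higher in the antibiotic group, purple points the 513 called lower and grey points the rest. The labelled genes are the 12 highest and 12 lowest called genes with no overlap between groups and a mean of 6 or more in the higher group, with Mndal, Sult1e1 and Cyp4a14 farthest above the line and Slc12a4 and Serpina4-ps1 farthest below it.

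Where treated wild-type livers without antibiotics lay between or beyond the 2 groups was described with no test. The treated wild-type mean was nearer to the antibiotic mean than to the mutant mean for 63.3% of all kept genes, for 84.4% of the 652 higher genes and for 73.1% of the 513 lower genes. The 4 mutant arrays lay outside the joint range of the antibiotic and treated wild-type arrays for 930 kept genes (9.81%), of which 450 were called higher and 254 called lower in the antibiotic group. The 4 antibiotic arrays lay outside the joint range of mutant and treated wild-type arrays for 226 genes (2.38%), of which 77 were called higher and 75 lower. The first kind held 18 of 24 kept Kupffer cell genes, 18 of 21 endothelial genes and 22 of 39 stellate cell and matrix genes, and the second kind Cyp4a14, Sult1e1, G6pc, Insig1 and Cyp3a11 among the genes described below.

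**Figure D2:**
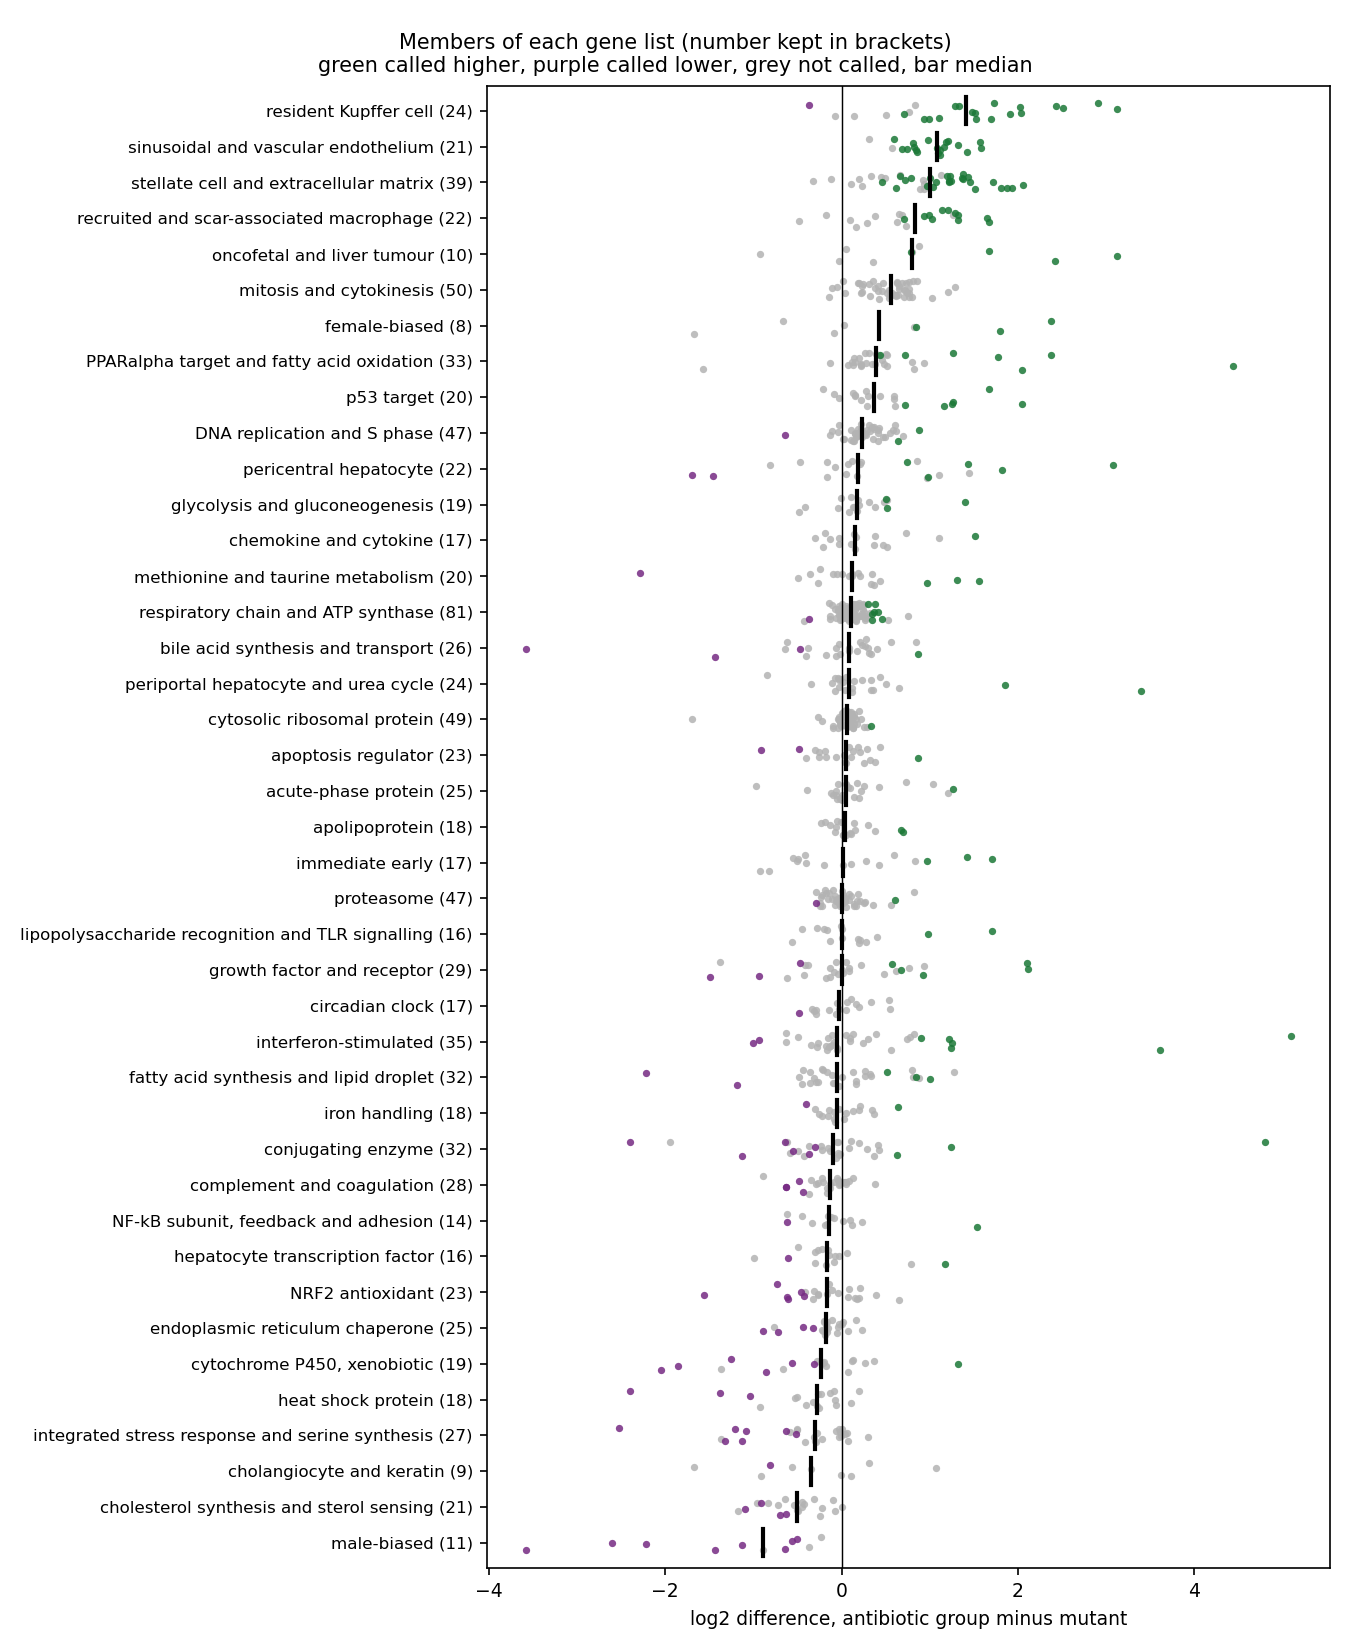
Log2 difference, antibiotic group minus mutant, of each kept member (points) of the gene lists with 8 or more kept genes, with the median of each list as a black bar; green points were called higher, purple called lower and grey not called. Resident Kupffer cell, endothelium and stellate cell lists have the highest medians (1.41, 1.09 and 1.00), and the cholesterol synthesis and male-biased lists the lowest (-0.51 and -0.89), beside -0.02 over all kept genes.

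Markers of resident Kupffer cells were higher in antibiotic livers. Of 32 listed genes 29 were on the array and 24 were kept; 18 of these were higher in the antibiotic group and 1 was lower, with a median log2 difference of 1.41. Vsig4, a complement receptor that clears bacteria from blood, read 6.0, 6.87, 7.69 and 7.0 on the antibiotic arrays, against 3.57, 3.59, 4.05 and 3.85 on the mutant arrays. Clec4f, a Kupffer-cell lectin, read 5.38, 5.07, 6.11 and 5.67 on the antibiotic arrays, against 2.48, 3.48, 3.17 and 3.38 on the mutant arrays. Every antibiotic array exceeded every mutant array for both genes, and 3 mutant Vsig4 values and all mutant Clec4f values were under 4, near background. The antibiotic levels were at least 7.34-fold higher for Vsig4 (log2 difference 3.12 ± 0.45, adjusted p = 0.000794) and at least 2.94-fold higher for Clec4f (log2 difference 2.43 ± 0.43, adjusted p = 0.00279), where ± is the standard error and "at least" marks a fold for which values under 4 in the lower group were set to the floor of 4. Treated wild-type arrays averaged 9.36 ± 0.46 (SD, n = 4) for Vsig4, and untreated wild-type arrays 7.46 ± 1.31 (SD, n = 3), so the mutant arrays were also below livers that had received no toxin.

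Cd163, the scavenger receptor for haemoglobin bound to haptoglobin, read 6.42, 6.25, 6.06 and 5.73 on the antibiotic arrays, against 3.13, 2.76, 4.31 and 2.64 on the mutant arrays. The Cd163 difference was 2.90 ± 0.36 on the log2 scale (adjusted p = 0.000244, at least 4.11-fold, with mutant arrays 8, 9 and 11 under 4). C1qa, a chain of complement C1q made mainly by macrophages, read 7.16, 6.95, 8.85 and 7.99 on the antibiotic arrays, against 5.23, 5.23, 5.20 and 5.25 on the mutant arrays. For C1qa the log2 difference was 2.51 ± 0.45 (adjusted p = 0.00296). Tyrobp, the signalling adaptor of many myeloid receptors, read 6.84, 7.01, 8.37 and 8.16 on the antibiotic arrays, against 5.67, 5.69, 5.21 and 5.69 on the mutant arrays. Tyrobp differed by 2.03 ± 0.38 (log2, adjusted p = 0.00368). In each case the lowest antibiotic array exceeded the highest mutant array, and the mutant C1qa values lay between 5.20 and 5.25 while antibiotic arrays 14 and 15 stood highest for C1qa and Tyrobp. The other higher members were Marco, Csf1r, C1qc, Fcgr3, Ptprc, C1qb, Aif1, Cd5l, Fcer1g, Adgre1, Laptm5, Fcgr2b and Maf, with differences from 0.71 (Maf) to 2.02 (Marco). Slc40a1, the iron exporter ferroportin, was the lower member (log2 difference -0.37 ± 0.10, adjusted p = 0.0318), a call that ended without array 8, 9, 12, 13 or 15, with the mean of probe sets, in a fit of the 8 arrays alone and with array weights. The summed linear signal of the 24 genes ranged from 10025 to 13401 on the antibiotic arrays, from 6850 to 7328 on the mutant arrays, from 15747 to 18648 on the treated wild-type arrays and from 6933 to 9478 on the untreated wild-type arrays. In whole-liver RNA, fewer cells of a type and less RNA per cell cannot be told apart.

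PU.1 is the transcription factor that sets up macrophage gene expression, and its core site was looked for, after the values had been seen, as the letters GAGGAAGT on either strand of RefSeq promoters (250 bases before to 50 after the start, build GRCm38.p6). It occurred in 4 of 36 promoters of the 2 macrophage lists (11.1%) and in 3.2% of all 32851 promoters. C1qc is shown as one that holds it, at chr4:136892865-136893164 on the minus strand; capitals mark the match, which reads as the reverse complement and starts at position -195 from the start site. A match describes letters in this window and is not evidence of binding.
C1qc: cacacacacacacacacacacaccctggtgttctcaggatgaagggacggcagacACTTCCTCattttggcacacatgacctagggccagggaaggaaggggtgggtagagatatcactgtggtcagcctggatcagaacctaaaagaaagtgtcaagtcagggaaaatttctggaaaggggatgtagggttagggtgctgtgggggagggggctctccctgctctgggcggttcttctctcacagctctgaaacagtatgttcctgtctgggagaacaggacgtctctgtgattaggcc
C1qc itself read 5.29, 4.98, 6.97 and 6.45 on the antibiotic arrays, against 4.42, 4.04, 4.05 and 4.24 on the mutant arrays (log2 difference 1.73 ± 0.38, adjusted p = 0.0095), with no overlap between groups.

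Genes of recruited and scar-associated macrophages were in part higher. The list had 31 genes, 26 on the array and 22 kept. Of these, 11 were higher, none lower, and the median difference was 0.83. The count of higher members was 8 without array 14 or with a filter at 6. S100a4, a calcium-binding protein of motile myeloid cells and fibroblasts, read 6.06, 6.08, 7.29 and 7.64 on the antibiotic arrays, against 5.05, 5.21, 4.89 and 5.21 on the mutant arrays. The S100a4 difference was 1.68 ± 0.31 on the log2 scale (adjusted p = 0.00324). Ccr2, the monocyte receptor for the chemokine CCL2, read 4.53, 4.82, 4.43 and 4.82 on the antibiotic arrays, against 2.66, 3.25, 2.68 and 3.42 on the mutant arrays. For Ccr2 the log2 difference was 1.65 ± 0.22 (adjusted p = 0.000545). All mutant Ccr2 values were under 4 and all antibiotic values between 4 and 5, and for S100a4 antibiotic arrays 14 and 15 were the highest. Plac8, Ms4a6c and Chil3 (the macrophage lectin Ym1) were higher by 1.31, 1.31 and 1.29 on the log2 scale (adjusted p 0.00127, 0.00357 and 0.00565); the Chil3 call ended with values under 4 set to 4. The remaining higher members were Clec7a, Itgb2, Ctss, Anxa1, Lyz1 and Msr1. Gpnmb, a marker of lipid-associated macrophages, differed by 0.38 (adjusted p = 0.655) and Cd9 by -0.49 (adjusted p = 0.149). The list's summed signal overlapped between groups, at 20590 to 32769 on the antibiotic arrays and 17245 to 24088 on the mutant arrays.

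Genes of antigen presentation by MHC class II were higher as well: all 4 kept genes (of 9 on the array) were called, with differences of 1.02 for H2-Ab1, 1.02 for Cd74, the invariant chain, 1.01 for H2-Eb1 and 0.93 for H2-Aa. H2-Aa, the brightest, read 6.59, 6.74, 6.74 and 6.28 on the antibiotic arrays, against 5.36, 6.0, 5.61 and 5.65 on the mutant arrays (adjusted p = 0.00962). The 4 genes summed to 146 to 206 on the antibiotic arrays and 72 to 102 on the mutant arrays, and the H2-Eb1 call ended with values under 4 set to 4. Few markers of other blood cells passed the filter. The neutrophil list had 2 kept genes of 11, with a sum of 14 to 24 on the antibiotic arrays and 13 to 31 on the mutant arrays; neither S100a8 (difference 0.14) nor S100a9 (-0.33) was called. The T and NK cell list had 1 kept gene of 14 (Ccl5, 4.56, 2.92, 5.46 and 4.79 on the antibiotic arrays, against 6.69, 3.98, 4.17 and 5.60 on the mutant arrays; log2 difference -0.68, not called). In the B and plasma cell list, with 2 of 8, Ighm was higher (log2 difference 0.98 ± 0.25, adjusted p = 0.0193), with 3 of 4 antibiotic and all 4 mutant values under 4. That call ended without array 11, after quantile normalization and with values under 4 set to 4.

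Genes of sinusoidal and other vascular endothelium were higher, with the highest share called (90.5%) of the lists with more than 4 kept genes. Of 29 genes 28 were on the array and 21 were kept. Of these, 19 were higher and none lower, and the median difference was 1.09. The count of higher members was 13 without array 9 or array 14, and 16 without array 11 or array 15 or with a filter at 6. Plvap, which forms the diaphragms of endothelial pores, read 10.04, 9.64, 10.08 and 9.95 on the antibiotic arrays, against 8.84, 8.24, 8.02 and 8.27 on the mutant arrays. Plvap differed by 1.58 ± 0.22 (log2, adjusted p = 0.000734, 3-fold). Lyve1, a hyaluronan receptor of sinusoids, read 7.29, 7.01, 7.34 and 7.27 on the antibiotic arrays, against 4.98, 5.48, 5.64 and 6.52 on the mutant arrays. The Lyve1 difference was 1.57 ± 0.35 on the log2 scale (adjusted p = 0.0109). Stab1, a scavenger receptor, read 8.42, 7.79, 8.50 and 8.41 on the antibiotic arrays, against 7.0, 6.86, 6.83 and 6.73 on the mutant arrays. For Stab1 the log2 difference was 1.42 ± 0.16 (adjusted p = 0.000136). None of these 3 overlapped between groups, the antibiotic values of Lyve1 lay between 7.01 and 7.34, and mutant array 11 was the highest mutant array for Lyve1. Mrc1, the mannose receptor of sinusoids and macrophages, was 2.5-fold higher (log2 difference 1.32 ± 0.23, adjusted p = 0.00251), and its mutant arrays, averaging 7.29, were also below untreated wild-type livers, at 8.23 ± 0.76 (SD, n = 3). Rspo3, a Wnt enhancer released by central-vein endothelium, was at least 1.76-fold higher (log2 difference 1.21 ± 0.22, adjusted p = 0.00299). The other higher members were Stab2, Aqp1, Flt4, Ehd3, Gpr182, Oit3, Eng, Bmp2, Kdr, Cdh5, Vwf, Clec4g, Tek and Egfl7, from 0.59 (Egfl7) to 1.18 (Stab2). The 21 genes summed to 4816 to 6348 on the antibiotic arrays, 2401 to 3160 on the mutant arrays and 5576 to 6914 on the treated wild-type arrays.

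Stellate cell and matrix genes were also higher. Of 49 genes 47 were on the array and 39 were kept. Of these, 25 were higher and none lower, with a median difference of 1.00. The count of higher members was 20 without array 14 or array 15 and 21 in a fit of the 8 arrays alone. Hgf, hepatocyte growth factor, which stellate cells and endothelium make and which drives hepatocyte division through MET, read 6.09, 6.34, 6.66 and 6.95 on the antibiotic arrays, against 4.74, 3.85, 4.30 and 4.91 on the mutant arrays, at least 4.07-fold higher (log2 difference 2.06 ± 0.23, adjusted p = 0.000104). Treated wild-type arrays averaged 6.68 ± 0.21 (SD, n = 4) and untreated wild-type arrays 5.14 ± 0.24 (SD, n = 3), so the 4 mutant arrays were the lowest group of the series for this gene. Lrat, which esterifies retinol in stellate cells, read 8.22, 8.0, 7.66 and 7.91 on the antibiotic arrays, against 6.58, 5.62, 5.29 and 6.60 on the mutant arrays. Lrat differed by 1.93 ± 0.31 (log2, adjusted p = 0.00158). Postn (periostin), Ecm1 and Ccn2 (connective tissue growth factor) were higher by 1.88, 1.81 and 1.71 (adjusted p 0.00472, 0.00127 and 0.0193). The Ccn2 call ended without array 8, 14 or 15.

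Acta2, an actin that marks stellate cell activation, read 8.84, 9.05, 9.84 and 9.23 on the antibiotic arrays, against 8.17, 8.30, 8.15 and 8.19 on the mutant arrays (log2 difference 1.04 ± 0.21, adjusted p = 0.00588, 2.05-fold), with mutant values that spanned 8.15 to 8.30. The fibrillar collagen Col1a1 read 5.03, 5.90, 6.44 and 6.32 on the antibiotic arrays, against 4.46, 5.81, 3.71 and 5.19 on the mutant arrays, and the groups overlapped (log2 difference 1.13 ± 0.41, adjusted p = 0.0887, not called). Timp1, the inhibitor of matrix proteases, was near background in both groups and was not called (log2 difference 0.89 ± 0.40, adjusted p = 0.154). Fibrillar collagens Col1a2 and Col3a1 differed by 0.93 and 0.93 (adjusted p 0.119 and 0.0846) and were not called. Col5a1 and Col5a2, also fibrillar collagens, were higher by 1.23 and 1.20, and collagens Col6a3 and Col14a1 by 1.51 and 1.22. The other higher members were Pdgfra, Reln, Tagln, Bgn, Colec11, Dcn, Lum, Sparc, Vim, Tpm2, Lamb1, Timp3, Cnn2, Col4a1 and Pdgfrb. The 39 genes summed to 25799 to 33914 on the antibiotic arrays, 16278 to 18314 on the mutant arrays and 35647 to 39107 on the treated wild-type arrays. The Kupffer cell, endothelium and stellate cell lists therefore moved the same way between these groups, and the part of any one cell type in the others' values was not tested.

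**Figure D3:**
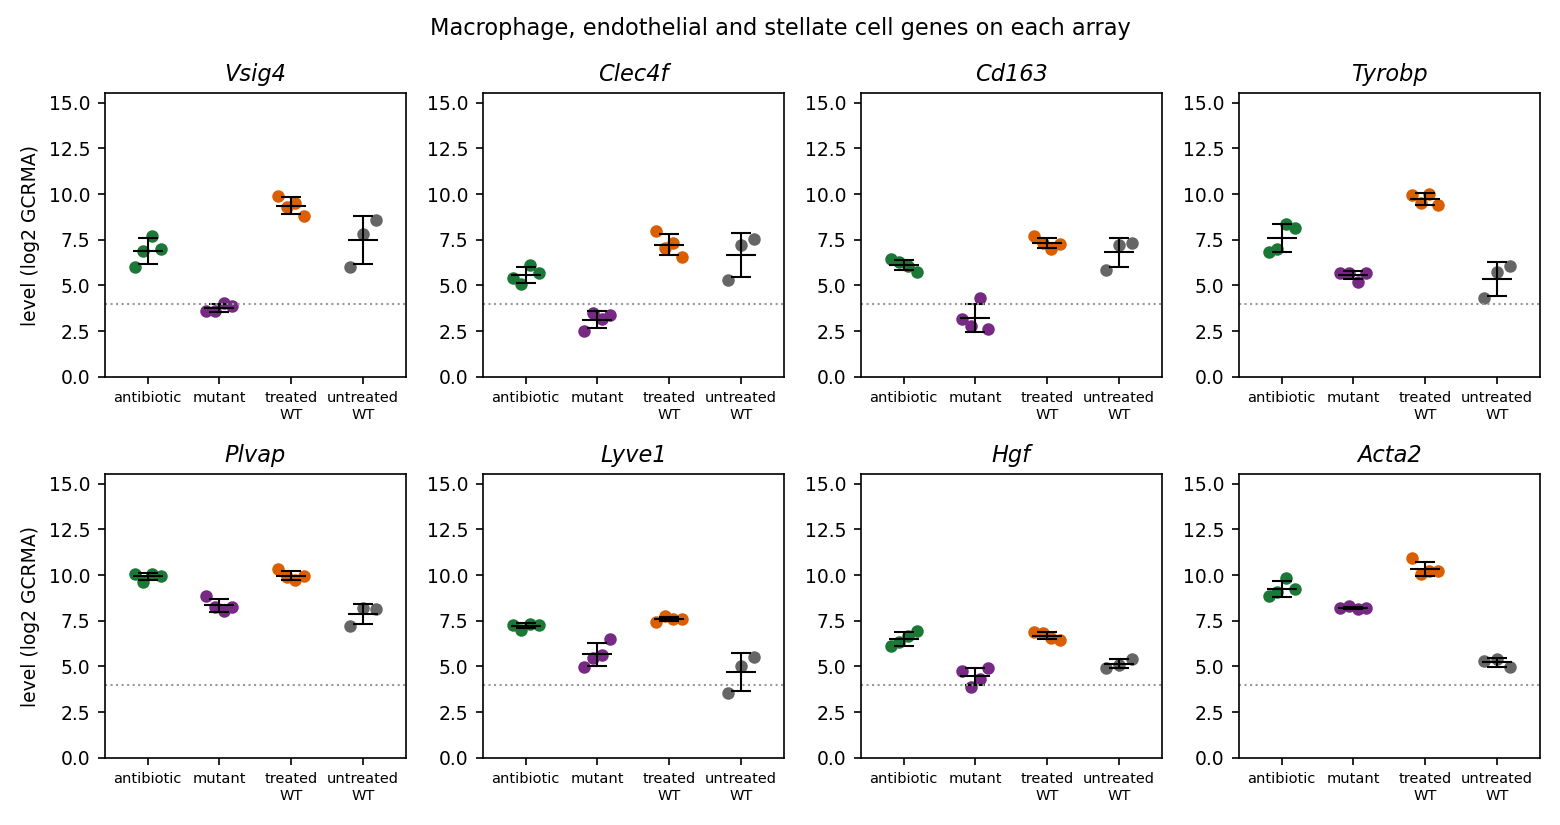
Log2 GCRMA level of 8 genes on each array (points) with group mean and SD (black) in the antibiotic, mutant, treated wild-type (WT) and untreated WT groups; the dotted line is the floor of 4. In all 8 panels the 4 antibiotic arrays lie above the 4 mutant arrays, and for Vsig4, Clec4f and Cd163 mutant means are at 3.77, 3.13 and 3.21.

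Kept genes of the lipopolysaccharide pathway itself were called about as often as all kept genes. Of 29 listed genes 25 were on the array and 16 were kept; 2 were higher and none lower, 12.5% against 12.3% of all kept genes, with a median of 0.00. The co-receptor Cd14 read 8.14, 8.12, 9.04 and 8.86 on the antibiotic arrays, against 8.98, 8.28, 7.94 and 8.20 on the mutant arrays (log2 difference 0.19 ± 0.24, adjusted p = 0.652), and the groups overlapped. Lbp, the plasma protein that hands lipopolysaccharide to CD14, differed by -0.13 (adjusted p = 0.826) and Ly96, the MD-2 subunit of the receptor, by -0.57 (adjusted p = 0.184), with 1 mutant array (array 8, 5.62) above the rest. The called members were Ly86 (MD-1), partner of the TLR4 homologue RP105 (log2 difference 1.71 ± 0.27, adjusted p = 0.00154), and Tlr13, the receptor for bacterial ribosomal RNA (log2 difference 0.98 ± 0.16, adjusted p = 0.0014), whose call ended with values under 4 set to 4. Tnf, Il1b, Il6 and the EGF receptor ligand Ereg stayed under 4 on all 15 arrays, with highest values of 2.56, 2.92, 1.74 and 3.98. Among 14 kept genes of the NF-kB list, Vcam1, the endothelial adhesion molecule, was higher (log2 difference 1.53 ± 0.30, adjusted p = 0.00484) and Ikbkg, the NEMO subunit of the kinase complex, lower (log2 difference -0.62 ± 0.14, adjusted p = 0.0116, a call that ended with the mean of probe sets). The share called was 14.3%, beside 12.3% of all kept genes. Of 17 kept chemokine and cytokine genes, Ccl6 was higher (7.40, 7.65, 8.38 and 8.46 on the antibiotic arrays, against 6.51, 6.09, 6.26 and 6.97 on the mutant arrays; log2 difference 1.51 ± 0.27, adjusted p = 0.00293). The neutrophil chemokine Cxcl2 differed by 1.11 (adjusted p = 0.0509).

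Interferon-stimulated genes were split: of 35 kept genes 6 were higher and 2 lower, and the median was -0.05. Mndal read 8.71, 8.93, 9.12 and 9.18 on the antibiotic arrays, against 2.87, 2.93, 6.58 and 3.15 on the mutant arrays. The Mndal difference was 5.10 ± 0.60 on the log2 scale (adjusted p = 0.000169, at least 20.2-fold). Mutant array 10 was far above the other 3 mutant arrays. Ifi202b read 4.94, 5.41, 6.02 and 5.25 on the antibiotic arrays, against 1.07, 1.27, 3.06 and 1.78 on the mutant arrays. For Ifi202b the log2 difference was 3.61 ± 0.36 (adjusted p = 4.44e-05, at least 2.65-fold, with all mutant values under 4). Both belong to the p200 cluster of near-identical genes on chromosome 1, whose probes can read several copies, so the member behind each signal is uncertain. Ifit2, Oasl2, Irf8 and Ifit3 were higher by 1.25, 1.24, 1.22 and 0.90, and the GTPase Igtp and the antiviral enzyme Rsad2 were lower (-1.01 and -0.94). Calls ended for Ifit2 without array 8, 9, 11, 13 or 14 and in a fit of the 8 arrays alone, and for Oasl2 with values under 4 set to 4. Of 25 kept acute-phase genes, Serpina3n, a secreted protease inhibitor, was higher (log2 difference 1.26 ± 0.27, adjusted p = 0.0075), and the serum amyloids were not called (Saa1 0.72, adjusted p = 0.63). Complement and coagulation genes made by hepatocytes had 4 lower members of 28 (C2, C8a, C9 and Masp1, from -0.63 for C2 to -0.44 for Masp1) and a median of -0.13. The share called was 14.3%, beside 12.3% of all kept genes. The list had no call without array 8 or without array 14 (limma, adjusted), 1 without array 9 or in a fit of the 8 arrays alone, and 2 without array 12 or 13, with no filter, with the mean of probe sets and with array weights, and the C2 call also ended without array 8, 9, 10, 12, 13 or 14, with no filter, with the mean of probe sets, in a fit of the 8 arrays alone and with array weights. For Masp1, 3 further probe sets, dimmer than the one used, were higher (1.14, 1.24 and 0.89), so its direction is unsettled.

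Growth factor genes moved in both directions. Of 29 kept genes 5 were higher and 3 lower. Inhbb, the activin B subunit, read 6.47, 6.46, 6.29 and 6.52 on the antibiotic arrays, against 4.36, 3.71, 4.07 and 5.19 on the mutant arrays, at least 4.09-fold higher (log2 difference 2.10 ± 0.25, adjusted p = 0.000196). Igfbp3, the main plasma carrier of insulin-like growth factors, read 8.25, 9.27, 8.16 and 8.74 on the antibiotic arrays, against 5.97, 6.13, 6.44 and 7.43 on the mutant arrays. Igfbp3 differed by 2.12 ± 0.38 (log2, adjusted p = 0.00296). Treated wild-type arrays, at 7.40 ± 0.58 (SD, n = 4), lay nearer to the mutant mean. Hbegf, a ligand of the EGF receptor, was lower at 4.82, 6.87, 6.02 and 5.93 on the antibiotic arrays, against 7.85, 7.48, 6.97 and 7.31 on the mutant arrays. The Hbegf difference was -1.49 ± 0.37 on the log2 scale (adjusted p = 0.0168). That call ended without array 8. Treated wild-type arrays averaged 4.30 ± 0.38 (SD, n = 4), so the mutant arrays were the highest group. Egfr, its receptor, was also lower (log2 difference -0.94 ± 0.18, adjusted p = 0.00438), and here treated wild-type arrays (11.52 ± 0.22, SD, n = 4) were close to the mutant mean of 11.58. Igfbp1, Mertk and Pdgfa were higher by 0.92, 0.68 and 0.57, and the growth hormone receptor Ghr was lower (-0.47). The list had 3 higher members without array 14 or in a fit of the 8 arrays alone, and 1 lower member without array 8.

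No mitosis gene was called, although most lay higher in the antibiotic group. The list had 52 genes, 51 on the array and 50 kept; 0 passed limma's adjusted test, 6 had an unadjusted p under 0.05, 47 differences were positive and the median was 0.56. Mki67, the proliferation antigen, read 8.39, 10.60, 9.27 and 10.37 on the antibiotic arrays, against 9.51, 9.63, 8.38 and 8.61 on the mutant arrays, and the groups overlapped (log2 difference 0.62 ± 0.41, adjusted p = 0.347). The mean log2 level of the 50 genes was 6.04, 8.02, 7.05 and 8.08 on antibiotic arrays 12 to 15, against 6.91, 7.22, 6.70 and 6.26 on mutant arrays 8 to 11. Antibiotic arrays 13 and 15 lay above all mutant arrays and array 12 below all of them, while treated wild-type arrays ranged from 8.63 to 9.38 and untreated ones from 3.37 to 3.56. When array 12 was left out, 18 mitosis genes and 12 replication genes of 47 were called higher, beside 755 of all 9482 genes. With all arrays 2 replication genes were higher, the polymerase subunit Pole (log2 difference 0.88 ± 0.21, adjusted p = 0.0138) and the ribonucleotide reductase subunit Rrm1 (log2 difference 0.64 ± 0.19, adjusted p = 0.0448), and the licensing factor Mcm10 lower (log2 difference -0.64 ± 0.15, adjusted p = 0.0149). Rrm1 lost its call without array 8, 9, 11, 13, 14 or 15, with no filter, in a fit of the 8 arrays alone and with array weights, and Mcm10 in a fit of the 8 arrays alone. Ccnd1, the cyclin of G1 entry, read 11.46, 11.06, 11.66 and 11.20 on the antibiotic arrays, against 11.09, 11.54, 11.80 and 11.08 on the mutant arrays. For Ccnd1 the log2 difference was -0.03 ± 0.25 (adjusted p = 0.95).

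**Figure D4:**
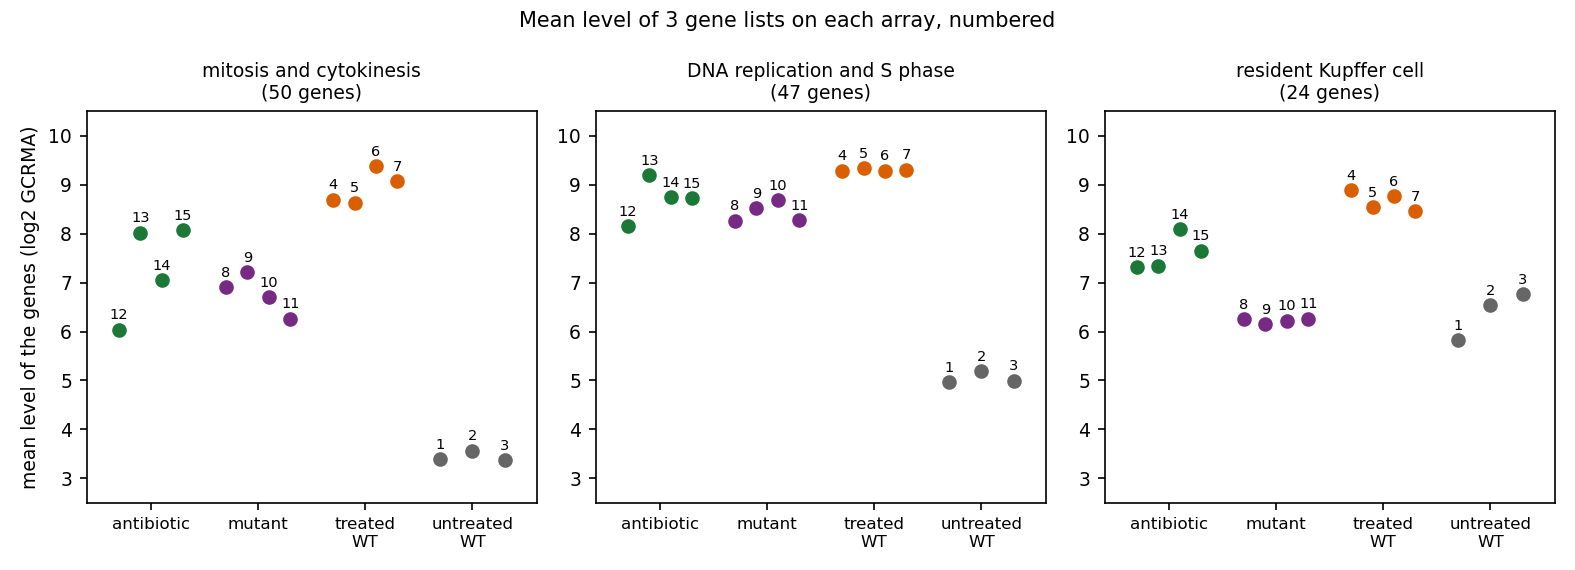
Mean log2 GCRMA level of the kept genes of 3 lists on each numbered array in the antibiotic, mutant, treated wild-type (WT) and untreated WT groups. Mitosis means of the antibiotic arrays run from 6.04 to 8.08 and enclose those of the mutant arrays (6.26 to 7.22), whereas Kupffer cell means of the antibiotic arrays (7.31 to 8.09) all exceed those of the mutant arrays.

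Some targets of p53, the DNA-damage transcription factor, were higher. Of 20 kept genes 6 were higher and none lower (30%, beside 6.88% of all kept genes called higher), and the median was 0.37. Gadd45a, also a p53 target, was not in this list and was lower (log2 difference -1.87 ± 0.34, limma adjusted p = 0.00324). Btg2, an antiproliferative p53 target, read 9.87, 9.71, 10.17 and 10.20 on the antibiotic arrays, against 7.75, 7.84, 7.99 and 8.19 on the mutant arrays (log2 difference 2.04 ± 0.30, adjusted p = 0.000968, 4.13-fold), and its antibiotic arrays also exceeded the treated wild-type arrays (8.68 ± 0.66, SD, n = 4). Cdkn1a, the cell-cycle inhibitor p21, read 10.76, 10.81, 11.01 and 10.65 on the antibiotic arrays, against 9.0, 9.15, 10.16 and 9.89 on the mutant arrays (log2 difference 1.26 ± 0.33, adjusted p = 0.0227), a call that ended without array 8, 9 or 14. Phlda3, Psrc1, Eda2r and Ccng1 were higher by 1.67, 1.25, 1.17 and 0.72, and the negative feedback gene Mdm2 differed by 0.21 (adjusted p = 0.518). The list had 3 higher members without array 8, and Psrc1 lost its call without array 8, 11, 14 or 15 and in a fit of the 8 arrays alone. Of 10 kept oncofetal and liver tumour genes 4 were higher and none lower. Ly6d, a surface marker, read 9.96, 10.99, 11.34 and 11.02 on the antibiotic arrays, against 6.39, 6.74, 9.40 and 8.28 on the mutant arrays. Ly6d differed by 3.12 ± 0.54 (log2, adjusted p = 0.00238, 8.71-fold). Tff3 (a trefoil peptide), Akr1b8 (an aldo-keto reductase) and Golm1 were higher by 2.42, 1.67 and 0.79, and the Golm1 call ended without array 8, 11, 13, 14 or 15. Afp, alpha-fetoprotein, read 12.51, 12.72, 11.86 and 12.35 on the antibiotic arrays, against 11.56, 11.43, 11.51 and 11.43 on the mutant arrays. The groups did not overlap, but the difference was not called (log2 difference 0.88 ± 0.32, adjusted p = 0.0905), whereas a second probe set of Afp was higher (1.17, adjusted p = 0.0451). Among 23 apoptosis regulators Casp1, the inflammasome protease, was higher (log2 difference 0.87 ± 0.17, adjusted p = 0.00412) and the BH3-only gene Bik and initiator caspase Casp9 lower (-0.92 and -0.48). The share called was 13.0%, beside 12.3% of all kept genes. The Bik call ended without array 14, and that of Casp9 without array 8, 13 or 15 and in a fit of the 8 arrays alone.

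Genes controlled by PPARalpha, the fatty acid sensor of hepatocytes, were in part higher in the antibiotic group, and treated wild-type means lay nearer to the mutant for most of them. Of 38 genes 34 were on the array and 33 kept; 7 were higher and none lower, 31 of 33 differences were positive and the median was 0.39. The treated wild-type mean was nearer to the antibiotic mean for 2 of the 33, against 63.3% of all kept genes. Cyp4a14, a fatty acid omega-hydroxylase, read 11.02, 8.81, 10.15 and 10.85 on the antibiotic arrays, against 6.35, 5.31, 7.14 and 4.27 on the mutant arrays, 21.7-fold higher (log2 difference 4.44 ± 0.73, adjusted p = 0.00183), and treated wild-type arrays averaged 3.75 ± 1.58 (SD, n = 4). Ehhadh, the bifunctional enzyme of peroxisomal beta-oxidation, read 12.59, 12.03, 13.06 and 12.65 on the antibiotic arrays, against 10.99, 11.63, 11.93 and 10.72 on the mutant arrays. The Ehhadh difference was 1.26 ± 0.34 on the log2 scale (adjusted p = 0.0252). Neither gene overlapped between groups, and antibiotic array 13 was the lowest antibiotic array for both. The thioesterases Acot1 and Acot3, the pantetheinase Vnn1, and the mitochondrial genes Hadha and Cpt2 were higher by 2.05, 2.37, 1.77, 0.72 and 0.43. The number of called members fell to 1 without array 11 or array 14, to 2 without array 8 or array 15, to 4 without array 12 and to 3 with no filter or in a fit of the 8 arrays alone, and Cyp4a14 was called in every one of these fits. Ehhadh lost its call without array 8, 11, 14 or 15, and Acot1 without array 8, 11 or 14 and in a fit of the 8 arrays alone. Acot3 lost it without array 9, 10, 11, 12, 14 or 15, with no filter and with array weights. Vnn1 lost it without array 8, 11, 13, 14 or 15, with no filter, in a fit of the 8 arrays alone and with array weights. Acot1 and Acot3 are near-identical neighbours on chromosome 12, so their signals may mix.

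G6pc, glucose-6-phosphatase, the last step of glucose release, read 11.29, 12.09, 10.74 and 11.79 on the antibiotic arrays, against 6.29, 8.56, 9.51 and 7.95 on the mutant arrays. For G6pc the log2 difference was 3.40 ± 0.60 (adjusted p = 0.00265, 10.6-fold). Mfsd2a, a transporter of lysophospholipids, read 10.44, 9.80, 9.05 and 9.28 on the antibiotic arrays, against 5.30, 6.43, 6.66 and 7.83 on the mutant arrays (log2 difference 3.09 ± 0.77, adjusted p = 0.0187), a call that ended without array 8. For both genes every antibiotic array exceeded every mutant array and every treated wild-type array, whose means were 8.45 ± 1.04 and 6.58 ± 1.91 (SD, n = 4). The other gluconeogenic gene Pck1 differed by 0.14 (adjusted p = 0.557). In the fatty acid synthesis and lipid droplet list, 3 of 32 kept genes were higher (Fabp4 1.01, Plin5 0.85 and the lipase Pnpla2 0.52) and 2 lower (Fasn -1.18 and Elovl3 -2.22). The share called was 15.6%, beside 12.3% of all kept genes. Fasn, fatty acid synthase, read 7.98, 8.60, 8.14 and 8.74 on the antibiotic arrays, against 9.70, 9.10, 9.20 and 10.21 on the mutant arrays. Fasn differed by -1.18 ± 0.34 (log2, adjusted p = 0.0354). Treated wild-type arrays averaged 10.0 ± 0.78 (SD, n = 4), and the Fasn call ended without array 8, 11, 12, 13 or 14. Elovl3 lost its call without array 8, 9, 12, 13 or 14 and in a fit of the 8 arrays alone, Plin5 without array 8, 9, 11, 12, 13 or 15, with no filter, in a fit of the 8 arrays alone and with array weights, and Pnpla2 in a fit of the 8 arrays alone. In the glycolysis and gluconeogenesis list 3 of 19 were higher and none lower (15.8% called, beside 12.3% of all kept genes). They were led by Pkm, the pyruvate kinase of non-hepatocyte and dividing cells (log2 difference 1.40 ± 0.26, adjusted p = 0.00389), with Hk1 at 0.51 and Slc2a2 at 0.50. The count was 1 without array 8 or array 13, with a filter at 6 and in a fit of the 8 arrays alone. Hk1 lost its call without array 8, 9, 13, 14 or 15, after quantile normalization, with values under 4 set to 4, in a fit of the 8 arrays alone, with array weights and with another prior, and Slc2a2 without array 8 or 13 and in a fit of the 8 arrays alone.

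Some cholesterol synthesis genes were lower in the antibiotic group. Of 26 genes 22 were on the array and 21 kept; 4 were lower and none higher, 20 of 21 differences were negative and the median was -0.51. Insig1, the sterol-sensing retention protein and a sensitive SREBP2 target, read 10.56, 11.10, 10.52 and 10.75 on the antibiotic arrays, against 12.01, 11.99, 11.14 and 12.17 on the mutant arrays. The Insig1 difference was -1.09 ± 0.19 on the log2 scale (adjusted p = 0.00279, 2.13-fold). Idi1 and Cyp51, enzymes of the pathway, were lower by -0.92 and -0.69, and Stard4, a sterol carrier, by -0.63. Mutant array 10 was the lowest mutant array for all 4 genes, and without it 13 of the 21 genes were called lower; the count was 2 in a fit of the 8 arrays alone. The call of Idi1 ended in a fit of the 8 arrays alone, and that of Cyp51 without array 8, 9, 11, 12, 13 or 14, in a fit of the 8 arrays alone and with array weights. The treated wild-type mean was nearer to the antibiotic mean for 1 of the 21 genes; for Insig1 it was 12.26 ± 0.11 (SD, n = 4), against 10.73 ± 0.26 on the antibiotic arrays and 11.83 ± 0.47 on the mutant arrays (SD, n = 4 each). The summed signal ranged from 15621 to 21555 on the antibiotic arrays, from 19420 to 33715 on the mutant arrays, from 27917 to 39399 on the treated wild-type arrays and from 50365 to 65687 on the untreated ones.

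Genes that male livers express more than female livers under growth hormone control were lower. Of 19 genes 12 were on the array and 11 kept; 8 were lower and none higher, and the median was -0.89. Slco1a1, an organic anion uptake transporter, read 3.56, 4.83, 4.82 and 6.41 on the antibiotic arrays, against 8.97, 9.77, 7.47 and 7.74 on the mutant arrays, at least 11.1-fold lower (log2 difference -3.58 ± 0.62, adjusted p = 0.00243). Hsd3b5, a male-specific steroid dehydrogenase, read 6.34, 8.73, 9.13 and 8.99 on the antibiotic arrays, against 11.33, 11.75, 9.96 and 10.56 on the mutant arrays. For Hsd3b5 the log2 difference was -2.61 ± 0.52 (adjusted p = 0.00573). For Slco1a1 and Hsd3b5, treated wild-type arrays averaged 7.26 ± 1.05 and 10.06 ± 0.46, and untreated ones 12.06 ± 0.06 and 12.98 ± 0.12 (SD, n = 4 and n = 3), so both genes were lowest in the antibiotic group. Elovl3, Cyp7b1 (an oxysterol hydroxylase) and Ugt2b1 were lower by -2.22, -1.43 and -1.13, and Mup3, Cyp2d9 and Nudt7 by -0.64, -0.56 and -0.51. The count of lower members was 4 without array 14 and in a fit of the 8 arrays alone, and 5 without array 9 or array 12, and the Elovl3 call ended without array 8, 9, 12, 13 or 14 and in a fit of the 8 arrays alone. Of 8 kept female-biased genes 3 were higher, Acot3, Fmo2 (log2 difference 1.79 ± 0.32, adjusted p = 0.00277) and Atp6v0d2 (0.85, a call that ended without array 8, 11, 13 or 15 and with values under 4 set to 4). Sult1e1, the oestrogen sulphotransferase, stood in another list (conjugating enzymes) and read 9.02, 7.16, 8.23 and 9.10 on the antibiotic arrays, against 3.25, 2.84, 4.14 and 4.08 on the mutant arrays, at least 20-fold higher (log2 difference 4.80 ± 0.64, adjusted p = 0.000448), with treated wild-type arrays at 4.51 ± 1.60 (SD, n = 4). Mup, Cyp2c, Cyp2d, Cyp3a and Ugt2b genes come in closely similar copies, so a probe set may read more than one.

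Of 19 kept xenobiotic cytochromes P450, 6 were lower, 1 was higher and 12 were not called, with a median of -0.24. Cyp3a11, the main drug-induced P450 of mouse liver, read 11.70, 12.48, 10.61 and 12.07 on the antibiotic arrays, against 13.55, 13.55, 13.93 and 13.23 on the mutant arrays. Cyp3a11 differed by -1.85 ± 0.29 (log2, adjusted p = 0.00128). Treated wild-type arrays, at 13.63 ± 0.15 (SD, n = 4), lay at the mutant level. Its regulator Nr1i2, the pregnane X receptor, was higher at 8.29, 8.28, 8.20 and 8.42 on the antibiotic arrays, against 6.28, 7.34, 7.71 and 7.18 on the mutant arrays. The Nr1i2 difference was 1.17 ± 0.26 on the log2 scale (adjusted p = 0.00932). Cyp2c55, Cyp2u1, Cyp3a25, Cyp2d9 and Cyp2d10 were lower by -2.05, -1.25, -0.85, -0.56 and -0.31, and Cyp2c29 was higher by 1.31, a call that ended without array 9, 11 or 15. Cyp2e1, which activates CCl4, read 11.14, 11.31, 11.83 and 12.33 on the antibiotic arrays, against 10.91, 11.36, 10.53 and 10.39 on the mutant arrays and was not called (log2 difference 0.85 ± 0.32, adjusted p = 0.0984). Among 32 conjugating enzymes 3 were higher (Sult1e1, Sult1b1 and Mgst3, the last 2 by 1.24 and 0.63) and 6 lower (Gstm3, Ugt2b1, Ugt2b5, Ugt2b34, Ugt2b35 and Ugt2b36). Gstm3, a glutathione transferase, read 7.91, 6.43, 8.50 and 8.53 on the antibiotic arrays, against 10.28, 9.89, 10.91 and 9.86 on the mutant arrays. For Gstm3 the log2 difference was -2.39 ± 0.58 (adjusted p = 0.0158), although a second, dimmer probe set gave -0.65 (adjusted p = 0.116). Bile acid genes had Slc51b higher (0.86) and Slco1a1, Cyp7b1 and Hsd3b7 lower among 26 (15.4% called, beside 12.3% of all kept genes). Slc51b lost its call without array 8, 9, 12, 13 or 14, after quantile normalization and in a fit of the 8 arrays alone, and Hsd3b7 without array 8, 9, 10, 13 or 14, in a fit of the 8 arrays alone and with array weights.

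**Figure D5:**
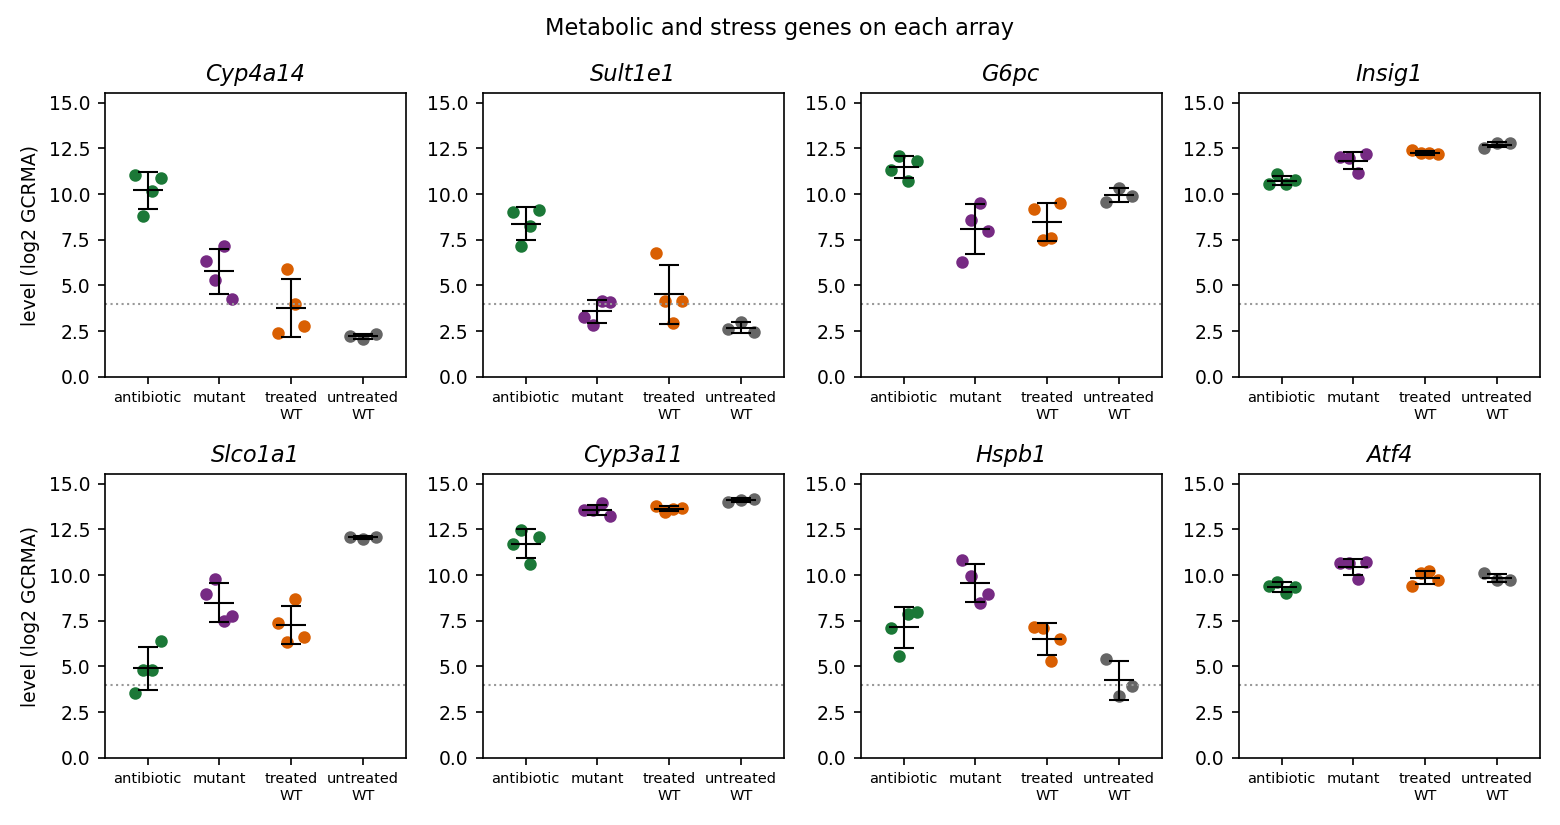
Log2 GCRMA level of 8 metabolic and stress genes on each array (points) with group mean and SD (black) in the antibiotic, mutant, treated wild-type (WT) and untreated WT groups; the dotted line is the floor of 4. Cyp4a14, Sult1e1 and G6pc are highest and Insig1, Slco1a1 and Cyp3a11 lowest in the antibiotic group, whereas Hspb1 and Atf4 are highest in the mutant group.

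Most genes of the 4 stress-response lists were not called, and each of their calls was lower in the antibiotic group. In the integrated stress response list, which covers amino acid shortage and serine synthesis, 7 of 27 kept genes were lower and none higher, and the median was -0.30. Atf4, the transcription factor of this response, read 9.39, 9.63, 9.02 and 9.35 on the antibiotic arrays, against 10.65, 10.64, 9.76 and 10.70 on the mutant arrays (log2 difference -1.09 ± 0.22, adjusted p = 0.00624, 2.13-fold), although a second, dimmer probe set gave -0.47 (adjusted p = 0.306). Slc3a2, the heavy chain of amino acid transporters, read 8.13, 7.34, 8.22 and 8.32 on the antibiotic arrays, against 10.34, 8.99, 8.75 and 9.21 on the mutant arrays. Slc3a2 differed by -1.32 ± 0.29 (log2, adjusted p = 0.00962). Nupr1, a stress-induced chromatin protein, read 4.34, 3.95, 4.83 and 5.85 on the antibiotic arrays, against 9.87, 6.90, 5.24 and 7.06 on the mutant arrays. The Nupr1 difference was -2.52 ± 0.70 on the log2 scale (adjusted p = 0.0292). Mutant array 8 was far above the other mutant arrays and mutant array 10 lay within the antibiotic range. Trib3, Vldlr, Cebpg and Eif4ebp1 were lower by -1.21, -1.14, -0.63 and -0.52. The count was 4 without array 8 or array 9 and 2 in a fit of the 8 arrays alone; the call of Nupr1 ended without array 9, 11, 12, 13 or 14 and in a fit of the 8 arrays alone, and that of Slc3a2 in a fit of the 8 arrays alone. Trib3 lost its call without array 8, 9, 13 or 14 and in a fit of the 8 arrays alone, and Vldlr without array 8 and in a fit of the 8 arrays alone.

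The amino acid response element, the site through which ATF4 acts, was searched after the values had been seen as the letters TGATGNAAT on either strand. It was found in 1 of 25 promoters of the list (4.0%) and in 0.965% of all promoters. Heat shock elements, sites of HSF1, were searched on both strands as GAA, TTC and GAA with 2 bases between each. They were found in promoters of 4 of 13 genes of the heat shock list (30.8%), each gene counted once, and in 0.603% of all promoters. Hsph1 matched in more than 1 promoter window, so the list share, by gene, is not strictly like the share of all promoters. Of the genes with a match Hsph1 was lower, while Chordc1, Hspd1 and Hspe1 were not called (log2 differences -0.525, 0.103 and -0.0774). The windows of Hspd1 and Hspe1 overlap on opposite strands and hold the same matches, so these sites are counted more than once. The promoter of Nupr1 (chr7:126625421-126625720, minus strand) and one of Hsph1 (chr5:149636266-149636565, minus strand) are shown as matches in genes that were lower, with the motif in capitals as its reverse complement, starting at position -111 in Nupr1 and at position 16 in Hsph1.
Nupr1: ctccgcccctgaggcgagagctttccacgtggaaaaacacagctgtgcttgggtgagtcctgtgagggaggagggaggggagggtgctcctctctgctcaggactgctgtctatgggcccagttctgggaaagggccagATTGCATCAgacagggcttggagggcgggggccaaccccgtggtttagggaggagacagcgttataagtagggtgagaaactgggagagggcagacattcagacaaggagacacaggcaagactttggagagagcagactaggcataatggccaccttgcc
Hsph1: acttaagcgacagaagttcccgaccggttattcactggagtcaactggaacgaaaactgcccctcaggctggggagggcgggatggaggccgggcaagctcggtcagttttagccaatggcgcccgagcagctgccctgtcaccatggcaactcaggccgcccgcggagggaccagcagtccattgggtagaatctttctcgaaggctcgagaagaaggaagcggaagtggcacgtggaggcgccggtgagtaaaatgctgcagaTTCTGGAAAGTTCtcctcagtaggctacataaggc
The sterol response element, searched as TCACNCCAC, was found in 1 of 17 cholesterol-list promoters (5.88%) and 1.24% of all promoters, and the PPARalpha element, AGGTCA repeated after 1 base, in 0 of 26 promoters of its list and 0.0396% of all promoters.

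Among 18 kept heat shock genes 3 were lower and none higher (16.7% called, beside 12.3% of all kept genes), and the median was -0.27. Hspb1, a small heat shock protein, read 7.12, 5.58, 7.88 and 8.0 on the antibiotic arrays, against 10.81, 9.94, 8.49 and 8.96 on the mutant arrays. For Hspb1 the log2 difference was -2.40 ± 0.64 (adjusted p = 0.0243, 5.28-fold). Its mutant arrays were also above treated wild-type (6.51 ± 0.88, SD, n = 4) and untreated (4.23 ± 1.06, SD, n = 3) arrays. The chaperone Hspa1b read 10.54, 9.58, 11.07 and 10.87 on the antibiotic arrays, against 11.79, 12.09, 11.17 and 12.55 on the mutant arrays. Hspa1b differed by -1.38 ± 0.40 (log2, adjusted p = 0.036). Its partner Hsph1 read 10.13, 9.21, 9.84 and 9.17 on the antibiotic arrays, against 10.58, 10.30, 10.71 and 10.90 on the mutant arrays. The Hsph1 difference was -1.03 ± 0.28 on the log2 scale (adjusted p = 0.0258). None of these 3 calls was made without array 8 or without array 13. Hspb1 lost its call without array 8, 9 or 13, Hspa1b without array 8, 9, 11, 12 or 13, with no filter and in a fit of the 8 arrays alone, and Hsph1 without array 8, 11, 13 or 15 and with the mean of probe sets. Of 25 endoplasmic reticulum genes 4 were lower and none higher (16.0% called, beside 12.3% of all kept genes). They were Ern1 (the stress sensor IRE1, log2 difference -0.89 ± 0.18, adjusted p = 0.00669), the oxidase Ero1b (-0.73), the transcription factor Xbp1 (log2 difference -0.44 ± 0.09, adjusted p = 0.00588) and calnexin Canx (-0.33). The main chaperone Hspa5 differed by -0.15 (adjusted p = 0.25), and the list's count was 2 without array 8 or array 14. Ero1b lost its call without array 8 or 14 and in a fit of the 8 arrays alone, Canx without array 8, 9, 11, 12 or 14 and in a fit of the 8 arrays alone, and Ern1 with the mean of probe sets.

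In the NRF2 list, which holds antioxidant and glutathione genes, 6 of 23 were lower and none higher. Gclc, the rate-limiting enzyme of glutathione synthesis, read 11.93, 12.14, 12.44 and 12.21 on the antibiotic arrays, against 12.98, 12.95, 12.63 and 12.65 on the mutant arrays. For Gclc the log2 difference was -0.62 ± 0.13 (adjusted p = 0.00658). Abcc4, Srxn1, Ugdh, Me1 and Abcc2 were lower by -1.56, -0.73, -0.61, -0.46 and -0.42, and the count was 3 without array 8, 13 or 15 and 2 in a fit of the 8 arrays alone. Abcc4 lost its call without array 13 or 14 and in a fit of the 8 arrays alone, and Ugdh without array 15. Srxn1 lost it without array 8, 10, 11, 12, 13 or 15, with no filter, with the mean of probe sets, in a fit of the 8 arrays alone and with array weights. Me1 lost it without array 8, 9, 11, 12, 13 or 14, with no filter, in a fit of the 8 arrays alone and with array weights.

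Of the zonation lists, the pericentral one had a larger share called than all kept genes and the periportal one a smaller share. Of 22 kept pericentral genes 5 were higher and 2 lower (31.8%, beside 12.3% of all kept genes). Glul, glutamine synthetase of the hepatocytes next to the central vein, read 9.33, 9.54, 9.46 and 9.35 on the antibiotic arrays, against 7.89, 8.88, 8.64 and 8.34 on the mutant arrays. Glul differed by 0.98 ± 0.18 (log2, adjusted p = 0.00332). The treated wild-type mean of Glul was 9.17 ± 0.26 (SD, n = 4). Cyp2c37 (log2 difference 3.08 ± 0.40, adjusted p = 0.0004, at least 6.68-fold), Cyp2c50 (1.43), the aldehyde dehydrogenase Aldh3a2 (1.82) and Lect2 (0.74) were higher. Cyp1a2 was lower at 10.41, 9.60, 10.55 and 10.68 on the antibiotic arrays, against 11.68, 11.43, 11.79 and 12.16 on the mutant arrays. The Cyp1a2 difference was -1.46 ± 0.26 on the log2 scale (adjusted p = 0.00281). Oat was lower (log2 difference -1.70 ± 0.53, adjusted p = 0.0494), a call that ended without array 8, 10, 11, 13, 14 or 15, with values under 4 set to 4, with no filter, in a fit of the 8 arrays alone and with array weights. Of 24 periportal genes 2 were higher (8.33%), G6pc and the urea cycle enzyme Ass1 (log2 difference 1.85 ± 0.52, adjusted p = 0.0321). Ass1 read 8.41, 8.69, 8.08 and 8.05 on the antibiotic arrays, against 6.34, 5.21, 6.95 and 7.31 on the mutant arrays. These levels lay below the list's mean levels of 11.65 (antibiotic) and 11.36 (mutant). Which Ass1 transcripts this probe set reads was not examined. The Ass1 call ended without array 8, 9, 12, 13, 14 or 15 and with array weights. In one-carbon metabolism Bhmt, which remethylates homocysteine, read 14.30, 14.41, 14.19 and 14.15 on the antibiotic arrays, against 11.27, 12.84, 13.95 and 12.76 on the mutant arrays. For Bhmt the log2 difference was 1.56 ± 0.37 (adjusted p = 0.0134). Here mutant array 10 was nearest to the antibiotic arrays and mutant array 8 lowest; this call ended in a fit of the 8 arrays alone. Gatm (1.31) and Sardh (0.97) were higher and Csad, the taurine-forming decarboxylase, lower (log2 difference -2.29 ± 0.54, adjusted p = 0.0138). Sardh lost its call without array 8 and in a fit of the 8 arrays alone, and Csad in a fit of the 8 arrays alone.

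Immediate early genes had 3 of 17 higher and none lower (17.6% called, beside 12.3% of all kept genes). They were Fos, Dusp1 (1.42) and the mRNA-decay factor Zfp36 (log2 difference 0.96 ± 0.18, adjusted p = 0.00339). Fos, a subunit of the transcription factor AP-1, read 10.23, 9.75, 10.15 and 9.86 on the antibiotic arrays, against 9.17, 8.18, 7.99 and 7.85 on the mutant arrays. Fos differed by 1.70 ± 0.44 (log2, adjusted p = 0.0225). Its partner Jun differed by 0.84 (adjusted p = 0.217) and Egr1 by -0.40 (adjusted p = 0.568), and neither was called. The list had 1 call without array 9, 11 or 14, and Zfp36 was called in each of these fits. Fos lost its call without array 9, 11 or 14, and Dusp1 without array 9, 10, 11, 13, 14 or 15 and with array weights. Of 16 hepatocyte transcription factors, Nr1i2 was higher and Foxa1 lower (log2 difference -0.61 ± 0.14, adjusted p = 0.0102), while Hnf4a differed by -0.16 (adjusted p = 0.272). Of 9 kept cholangiocyte and keratin genes Sox9 was lower, at 4.21, 4.16, 4.48 and 4.21 on the antibiotic arrays, against 5.78, 4.89, 4.75 and 4.87 on the mutant arrays. The Sox9 difference was -0.81 ± 0.21 on the log2 scale (adjusted p = 0.0205). Krt19 was not called (-0.34), and the Sox9 call ended without array 13, in a fit of the 8 arrays alone and with array weights. Lists of housekeeping genes served as a scale. Cytosolic ribosomal proteins had 1 call in 49 with a median of 0.06, the proteasome 2 in 47 with a median of 0.00, and the respiratory chain and ATP synthase 8 in 81 with a median of 0.11, of which 7 were higher, with 1 higher without array 9, 3 without array 14 or 15, 4 without array 11 and 0 in a fit of the 8 arrays alone. Apolipoproteins had 2 of 18 higher (Lcat 0.69 and Apoc2 0.67), iron genes Slc39a14 higher (0.64) and Ireb2 lower (-0.40), and circadian genes Rora lower (-0.48). Calls ended for Lcat without array 9, 10, 11, 14 or 15, with no filter and in a fit of the 8 arrays alone, for Rora without array 8, 9 or 13, and for Slc39a14 and Ireb2 in a fit of the 8 arrays alone.

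Some of the largest differences separated C3H/HeJ from all C3H/HeOuJ arrays, treated or not. The mutant arrays lay outside the range of all 11 wild-type arrays for 254 kept genes (2.68%), 77 of them called higher and 121 called lower in the antibiotic group. Slc12a4, a potassium-chloride cotransporter, read 1.86, 2.29, 1.75 and 2.10 on the antibiotic arrays, against 6.37, 6.43, 5.74 and 6.04 on the mutant arrays. For Slc12a4 the log2 difference was -4.14 ± 0.16 (adjusted p = 1.87e-09). Its treated and untreated wild-type means were 1.90 ± 0.19 (SD, n = 4) and 2.08 ± 0.11 (SD, n = 3). B3galnt1, a glycosyltransferase, read 6.59, 7.36, 6.63 and 6.71 on the antibiotic arrays, against 2.45, 2.51, 2.0 and 3.07 on the mutant arrays. B3galnt1 differed by 4.32 ± 0.21 (log2, adjusted p = 2.54e-08). Its wild-type means were 6.67 ± 0.14 treated and 7.40 ± 0.26 untreated (SD, n = 4 and n = 3). The signal of Slc12a4 was thus near background on all wild-type arrays and above it on all mutant arrays, and that of B3galnt1 the reverse. Sequence differences between the 2 strains under the probes would also change such signals and were not examined. Copz2, a coat protein subunit (log2 difference 3.37 ± 0.19, adjusted p = 8.07e-08, at least 4.49-fold, with all mutant values under 4), and Rbks, ribokinase (log2 difference 3.24 ± 0.18, adjusted p = 8.07e-08), were higher in the antibiotic group. Cystm1 (log2 difference -2.14 ± 0.14, adjusted p = 2.5e-07), Lcorl (log2 difference -2.13 ± 0.17, adjusted p = 4.05e-06) and Nme7 (log2 difference -2.07 ± 0.17, adjusted p = 4.05e-06) were lower. Among the genes described above, Mndal, Vsig4, Cd163, Clec4f, Csf1r, Hgf, Mrc1, Glul, Bhmt, Hspb1, Hspa1b, Hsph1, Slc3a2, Gclc, Sult1b1 and Hbegf belong to the same 254.

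The 12 highest and 12 lowest differences also held genes not yet described. Calml4, a calmodulin-like protein, read 8.01, 8.22, 8.04 and 7.04 on the antibiotic arrays, against 3.55, 5.34, 5.36 and 4.08 on the mutant arrays. The Calml4 difference was 3.24 ± 0.41 on the log2 scale (adjusted p = 0.000302, at least 8.74-fold). Plat, tissue plasminogen activator, read 5.01, 7.60, 5.86 and 6.34 on the antibiotic arrays, against 2.95, 3.29, 2.86 and 3.32 on the mutant arrays. For Plat the log2 difference was 3.10 ± 0.40 (adjusted p = 0.000317, at least 4.61-fold). Treated wild-type arrays lay at the antibiotic level for both, at 7.90 ± 0.60 and 6.15 ± 0.42 (SD, n = 4), and untreated ones averaged 3.56 ± 0.39 and 3.09 ± 0.29 (SD, n = 3). Serpina4-ps1, an annotated pseudogene, read 2.78, 4.52, 5.89 and 6.21 on the antibiotic arrays, against 9.27, 9.89, 7.21 and 9.57 on the mutant arrays (log2 difference -4.13 ± 0.77, adjusted p = 0.00356, at least 14.2-fold lower). Bach2, a transcriptional repressor best known from lymphocytes, and Mmd2 were lower by -2.10 and -2.76 (adjusted p 0.00958 and 0.0023). Untreated wild-type arrays averaged 11.10 ± 0.57 for Serpina4-ps1 (SD, n = 3), the highest of the 4 groups.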

How the data were processed

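Whole-liver RNA had been isolated with Trizol and a column and 100 ng amplified for Affymetrix 3-prime arrays, per the labels' protocols. The deposited values are log2 GCRMA levels (background-corrected and normalised by the authors), per the submitters' processing notes, which give no version. Arrays give no read depth, and their number limits the precision.

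Of 45101 probe sets, 34945 had 1 gene symbol in the platform annotation, 932 had several, 9160 had none and 64 were controls. Probe sets reaching 4 on 3 or more of 15 arrays were kept (15541), and the one with the highest mean stood for its gene (9482 genes). Differences, antibiotic group minus mutant, were fitted with limma 3.58.1 (R 4.3.3): lmFit with 4 group means over all 15 arrays and eBayes (11 residual and 3.4 prior degrees of freedom), with Benjamini-Hochberg adjustment over all kept genes and a threshold of 0.05. For a fold, each value under 4 in the lower group was set to 4 before averaging. pandas 2.3.3 and matplotlib 3.10.9 under Python 3.11.15 gave the tables and figures, and the fit was tested on simulated data. There, 13 of 166 calls were false. Simulated log2 changes of 0.5, 1 and 2 were recovered in 38.8%, 91.0% and 100.0% of the genes given them, so small differences were often missed.

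The comparison, its 48 gene lists and the alternatives were chosen with earlier results of these data known. Named genes were the 12 highest and 12 lowest called differences without overlap and with a mean of 6 or more in the higher group, 18 fixed genes, and up to 5 called members of each list. Other members were named after their values were seen, except where all called members of a list are named. Alternatives covered scaling, floor, filter, probe sets, arrays in the fit, array weights, prior and each of the 8 arrays left out.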

Additional observations from a re-analysis of the deposited data

Results flagged for a closer look

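In groups of 4 arrays, 330 sets of values of the named genes were examined, and in 15 of them 1 array lay far from the other 3 (a gap to the nearest array, as a share of the group's range, above Dixon's critical value). Chance flags about 1 group in 20, here 16, so the number of flags is that of chance. On the antibiotic arrays, array 13 was high for B3galnt1 (7.36, others 6.59 to 6.71) and low for Lcorl (5.99, others 6.46 to 6.55) and Stab1 (7.79, others 8.41 to 8.50). Array 12 was low for Hsd3b5 (6.34, others 8.73 to 9.13) and high for Ighm (4.43, others 3.71 to 3.81). Array 14 was low for Sardh (8.07, others 8.98 to 9.12) and high for Sox9 (4.48, others 4.16 to 4.21), and array 15 was low for Fabp4 (9.82, others 10.22 to 10.27) and Ugt2b35 (11.8, others 11.96 to 11.99). On the mutant arrays, array 10 was low for Atf4 (9.76, others 10.64 to 10.70), Cyp51 (9.99, others 10.69 to 10.80) and Tyrobp (5.21, others 5.67 to 5.69) and high for Mndal (6.58, others 2.87 to 3.15). Mutant array 8, which has no sex label but read as male by Kdm5d, was high for Ly96 (5.62, others 4.04 to 4.30) and Sox9 (5.78, others 4.75 to 4.89).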

How the results depend on the processing

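The 8 arrays fitted alone gave 673 calls, of which 234 were lower in the antibiotic group. Leaving out 1 array gave 723 to 1375 calls, 430 to 755 higher, 267 to 650 lower, 215 to 330 higher by 2-fold or more and 59 to 120 lower by 2-fold or more. The low ends came without mutant array 8 (723 calls, 267 lower, 59 by 2-fold or more) and without antibiotic array 14 (757 calls, 430 higher, 327 lower), and the lower calls also dropped to 329 without array 9 and 314 without array 13. The other alternatives (centring, quantile normalization, a floor of 4, no filter, a filter at 6, mean of probe sets, array weights, another prior) kept each of these counts over all genes within 1.5 times. Higher genes made up 55.97% of the calls, 50.86% after quantile normalization and 65.23% with the 8 arrays alone. Of 156 called named genes, 85 were called in every setting that gave a value and 99 in every one that left out no array. The 8 arrays alone ended 45 of these calls, leaving out array 8 ended 42 and leaving out array 14 ended 39; the cause was not tested. Directions held for 154 of 156. With the mean of probe sets Masp1 changed to 0.71 (adjusted p = 0.00401) and Rpl41 to -0.14 (adjusted p = 0.553), since their probe sets differ. No paired analysis was possible because the 2 groups share no replicate numbers. Signal near background limits the folds given as "at least".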

Other observations

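Further genes had the 4 antibiotic arrays outside the joint range of mutant and treated wild-type arrays. Those given here, beyond genes whose array values stand above, came from the 30 largest such differences, chosen after the values were seen. The stress-response gene Gadd45a read 5.05, 5.63, 5.21 and 6.05 on the antibiotic arrays, against 7.5, 7.47, 7.61 and 6.86 on the mutant arrays (log2 difference -1.87 ± 0.34, adjusted p = 0.00324), whereas its relative Gadd45g was higher, at 6.82, 7.51, 7.41 and 7.80 on the antibiotic arrays, against 5.32, 4.73, 6.56 and 5.80 on the mutant arrays. The Gadd45g difference was 1.78 ± 0.54 on the log2 scale (adjusted p = 0.0434). Ces2a, a carboxylesterase of drug and lipid metabolism, and Acsl3, an acyl-CoA synthetase, were lower by -1.51 and -1.07 (adjusted p 0.000375 and 0.00338). Efna1, an ephrin ligand, and Slc25a25, a mitochondrial carrier of ATP and magnesium, were higher by 1.45 and 1.43 (adjusted p 0.00292 and 0.00206). Treated wild-type arrays averaged 7.25 ± 0.81 for Gadd45a, 5.25 ± 1.12 for Gadd45g and 5.52 ± 0.45 for Slc25a25 (SD, n = 4), close to the mutant means of 7.36, 5.60 and 5.55.

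Genes for which the mutant arrays lay outside the range of all wild-type arrays were spread over many chromosomes: among the 30 largest such differences were Slc12a4 on chromosome 8, B3galnt1 on chromosome 3, Copz2 on chromosome 11, Nme7 on chromosome 1 and Ppp1r21 on chromosome 17 (log2 difference -1.64 ± 0.11, adjusted p = 5.29e-07). Tlr4 is not among the kept genes, so no value of it enters these counts.

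The comparison did not use probe sets without a single symbol. Of 2133 such probe sets that passed the filter, 136 were higher and 89 lower in the antibiotic group by the same fit. More than 1 kept probe set stood for 3847 genes, and for 6 of these both directions were called, and Masp1 was the 1 named gene among them.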
